A study of Homo sapiens with 18 samples.

Results

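Cytosolic ribosomal proteins are the protein components of the ribosome outside mitochondria. Their genes were taken as every gene of the deposited table whose current symbol, looked up by Entrez number, starts with RPL or RPS and a number, or is RPLP0, RPLP1, RPLP2 or RPSA, without the S6 kinases, RPS27L, pseudogenes and mitochondrial ribosomal genes. The rule found 88 of 18475 genes. Of these, 43 encode proteins of the large (60S) subunit, 3 the stalk of that subunit and 31 the small (40S) subunit, and these 77 are called the core genes here. The other members were 7 paralogs (RPL3L, RPL22L1, RPL26L1, RPL39L, RPL7L1, RPL36AL and RPS4Y1), 3 read-through genes that join a ribosomal protein gene to its neighbour, and RPS19BP1, which encodes a protein that binds RPS19 and is not itself part of the ribosome. The level of the Y-linked RPS4Y1 is not given, and RPL10L was not analysed here.

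RNA was sequenced from 3 human cell lines, each with 3 control and 3 irradiated libraries, 18 in all. BEAS-2B is an immortalised line of bronchial epithelium, H446 a line of small cell lung cancer and A549 a line of lung adenocarcinoma. All groups carry the label Wild type; the irradiated cells received 10 Gy of X-rays in 1 dose and were harvested 24 h later, and the control cells were not irradiated. The comparison within each line gives the response of that line to radiation, and the responses were then compared between the lines. Each group is 1 established line, and nothing in the labels says whether the 3 libraries of a group came from separate cultures, so p-values measure only the spread between these libraries.

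The ribosome translates messenger RNA into protein, with the small subunit reading the message and the large subunit joining amino acids. Its proteins are made in near equal numbers, and most of their messages start with a run of pyrimidines directly at the cap, the terminal oligopyrimidine (TOP) motif, through which mTORC1 and LARP1 control how strongly they are translated. When ribosome assembly is disturbed, free RPL5 and RPL11, bound to 5S ribosomal RNA, inhibit MDM2 and so stabilise p53, and RPL23, RPL26 and RPS7 have been described to bind MDM2 too. Changes in translation itself are not seen in RNA levels, which are the only measure here. In bulk RNA, fewer cells of a kind and less RNA per cell cannot be told apart.

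The lines and libraries were checked first. The H446 libraries had almost no RNA of the genes that define neuroendocrine small cell lung cancer, with CHGA at an FPKM of at most 0.05 and NCAM1 at most 0.01. FPKM, the unit of all levels below, is the number of reads of a gene scaled to the length of its transcript and to the mapped reads of the library. A549 held 1523 to 1910 FPKM of ALDH1A1, a dehydrogenase that is abundant in this line, and at most 0.09 of CDKN2A, which is deleted in it. Its alveolar markers SFTPB and NKX2-1 stayed at or below 0.07 and 0.20. A further one, NAPSA, was at 0.59 to 0.94 in A549 and at most 0.04 in each of the other lines. BEAS-2B had 500 to 596 FPKM of the epithelial keratin KRT8 but at most 3.06 of EPCAM and 0.54 of CDH1, the epithelial adhesion genes, and the basal keratins KRT5 and KRT14 stayed at or below 0.03 and 0. One irradiated library stood apart: over 5 p53 targets (CDKN1A, MDM2, GDF15, TP53I3 and FDXR), the median log2 difference from the control mean was 0.17 in BEAS-2B 10 Gy replicate 2 and 1.73 and 2.48 in replicates 1 and 3. It was 1.61, 1.50 and 1.52 in irradiated A549 and lay between -0.15 and 0.02 in irradiated H446. Counts that include BEAS-2B 10 Gy are therefore given with and without replicate 2, and so are the fold changes of the members named. Small steps between the lowest values of short single-transcript genes put 1 read at 0.0646 to 0.0774 FPKM for a transcript of 1 kb in all libraries, so their depths were close.

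The start of the transcript is the sequence these genes are best known to share, and it is shown for the members on which the results below turn. RefSeq sequences of GRCh38.p14 gave a listed start for 62 of the 77 core genes. At 46 of these (74.2%) the first base of at least 1 listed start was a C followed by at least 4 further pyrimidines on the transcribed strand, compared with 6.36% of 14355 other genes of the table that have a listed start and 5.14% of all 27305 genes in the reference table. Allowing the run to begin up to 5 bases to either side raised the shares to 85.5% and 28.5%. A match describes the letters at a listed start and is no measure of TOP regulation. Each line below runs 5′ to 3′ from 10 bases before the listed start to 20 bases from it, with the pyrimidine run in capitals; where a gene has several starts, one with the run was taken.
RPS19 (chr19:41860245-41860274, plus strand): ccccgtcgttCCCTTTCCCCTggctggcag
RPL28 (chr19:55385922-55385951, plus strand): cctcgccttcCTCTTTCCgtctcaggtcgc
RPL7A (chr9:133348208-133348237, plus strand): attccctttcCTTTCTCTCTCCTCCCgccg
RPL34 (chr4:108620566-108620595, plus strand): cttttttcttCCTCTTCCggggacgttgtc
RPS28 (chr19:8321486-8321515, plus strand): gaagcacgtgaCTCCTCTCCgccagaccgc
RPL37A (chr2:216498834-216498863, plus strand): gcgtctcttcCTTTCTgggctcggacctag
RPS21 (chr20:62387093-62387122, plus strand): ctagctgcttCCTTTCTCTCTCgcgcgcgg
RPL22L1 (chr3:170870176-170870205, minus strand): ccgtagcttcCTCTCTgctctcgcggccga
RPL36AL (chr14:49620607-49620636, minus strand): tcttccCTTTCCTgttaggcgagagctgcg
RPS15 (chr19:1438386-1438415, plus strand): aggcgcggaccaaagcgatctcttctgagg
RPL7L1 (chr6:42879606-42879635, plus strand): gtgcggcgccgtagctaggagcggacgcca
RPS19 and RPL28, which moved in opposite directions in A549, both begin with the run, and so does the paralog RPL22L1. RPS15 and the paralog RPL7L1 have no such run within 5 bases of the listed start.

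The core genes made up between 14.9% and 22.6% of all FPKM of a library. BEAS-2B control libraries stood at 21.2%, 19.1% and 22.6% (mean 21.0% ± 1.73, SD, n = 3) and the irradiated ones at 18.7%, 19.6% and 21.0% (19.8% ± 1.17). H446 had 15.9%, 15.9% and 16.5% before (16.1% ± 0.393) and 15.3%, 16.4% and 14.9% after irradiation (15.5% ± 0.767). A549 had 20.3%, 21.0% and 20.1% (20.5% ± 0.432) and then 21.1%, 20.7% and 20.04% (20.6% ± 0.523). Within each line, the irradiated libraries overlapped the controls, and all 6 H446 libraries lay below all 12 of the other lines. Core genes filled 60 of the 100 highest places in BEAS-2B control cells, 55 in H446 and 59 in A549. The balance between subunits also set a line apart: the summed FPKM of 60S and stalk genes was 1.59 ± 0.0231 times that of 40S genes in BEAS-2B controls and 1.53 ± 0.0163 times in H446, and 1.32 ± 0.00614 times in A549, and irradiated libraries stayed at 1.58, 1.55 and 1.31.

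**Figure D1:**
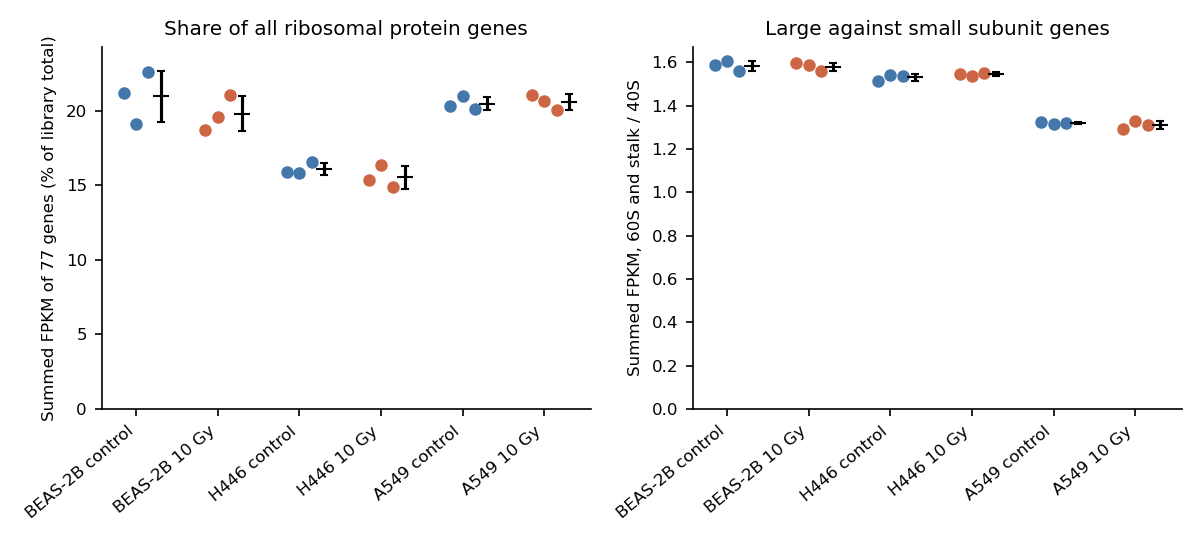
The left panel plots the summed FPKM of the 77 core genes as a percentage of each library's total, the right panel the summed FPKM of 60S and stalk genes divided by that of 40S genes. Each point is 1 library (blue control, orange 10 Gy), the dash and bar beside them are the mean and SD of 3 libraries, and H446 sits lowest on the left and A549 lowest on the right.

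Levels per length differed widely between the core genes although their proteins are needed in near equal numbers. The highest mean over the 18 libraries was that of RPL41 (3553 FPKM), which encodes the smallest ribosomal protein, followed by RPL26 (3365 FPKM), at the nascent chain exit of the large subunit, and RPS27 (2935 FPKM), a zinc finger protein of the small subunit. The lowest were RPL13 (139 FPKM), RPL27A (186 FPKM) and RPS23 (188 FPKM). Ribosomal protein genes have many processed pseudogenes with near-identical sequence, and reads of 50 bases can be split among copies, so a low level of such a gene is uncertain. The order of the core genes in control cells was alike in the lines, with Spearman's rho across the 77 genes of 0.90 between BEAS-2B and H446, 0.81 between BEAS-2B and A549 and 0.76 between A549 and H446; genes are not independent replicates, and their transcript lengths are shared by all libraries. Levels of the paralogs varied. RPL36AL averaged 413 FPKM, above some core genes, while RPL22L1 averaged 18.7 FPKM against 279 FPKM for RPL22, RPL39L 33.0 FPKM and RPL26L1 54.0 FPKM, and the read-through genes RPL17-C18orf32 and RPL36A-HNRNPH2 averaged 2.59 and 8.31 FPKM. RPL3L, the form of RPL3 made in muscle, was listed at 0 in 15 of 18 libraries and reached at most 0.09 FPKM. It passed the filter on low values in no line.

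Within a line the core genes moved together from library to library, in replicates of the same treatment as much as between treatments. Relative to the mean of the 6 libraries of the line, their median log2 deviation was 0.07, -0.13 and 0.21 in BEAS-2B control replicates 1, 2 and 3, and -0.15, -0.06 and 0.06 in the irradiated ones. In control replicate 2 none of the 77 core genes lay above the mean of the line, and in control replicate 3 76 did. In H446 the medians were 0.02, 0.02 and 0.09 in controls and -0.06, 0.05 and -0.13 after irradiation, with 76 core genes above the mean in control replicate 3 and 2 in irradiated replicate 3. A549 was narrowest, from -0.05 to 0.07. Directions of single members within a line are thus not independent of each other.

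Other short transcripts moved the same way in most libraries, with exceptions. Genes outside the list whose longest transcript was under 1000 bases (263 to 275 a line) had a median deviation of -0.11 in BEAS-2B control replicate 2 and 0.13 in replicate 3, and the 77 mitochondrial ribosomal protein genes -0.09 and 0.11, while the median of all genes tested lay between -0.02 and 0.02 in every library of the 3 lines. In BEAS-2B control replicate 1 the short genes were at -0.01 with the core genes at 0.07, in 10 Gy replicate 2 at 0.02 with the core genes at -0.06, and in H446 10 Gy replicate 2 at -0.00 with the core genes at 0.05. Each library also carried a trend with transcript composition. In H446 the deviations of all genes rose with GC content in every control library (Spearman's rho across genes of 0.35 to 0.46) and fell with it in every irradiated library (-0.50 to -0.11), so the GC trend and irradiation cannot be told apart in this line. In BEAS-2B the rho ran from -0.63 (control replicate 1) to 0.70 (10 Gy replicate 2), and in A549 only from -0.13 to 0.17. The rho with length ran from -0.23 to 0.31 over the 18 libraries. Core genes had a median GC content of 47.9%, near the 48.2% of expressed genes, and ranged from 37.4% to 63.7%; their longest annotated transcripts had a median of 1857 bases against 3665, and these include isoforms much longer than the usual message. The part of these trends in the results below was not tested beyond the fits with the trends removed that are given beside them.

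**Figure D2:**
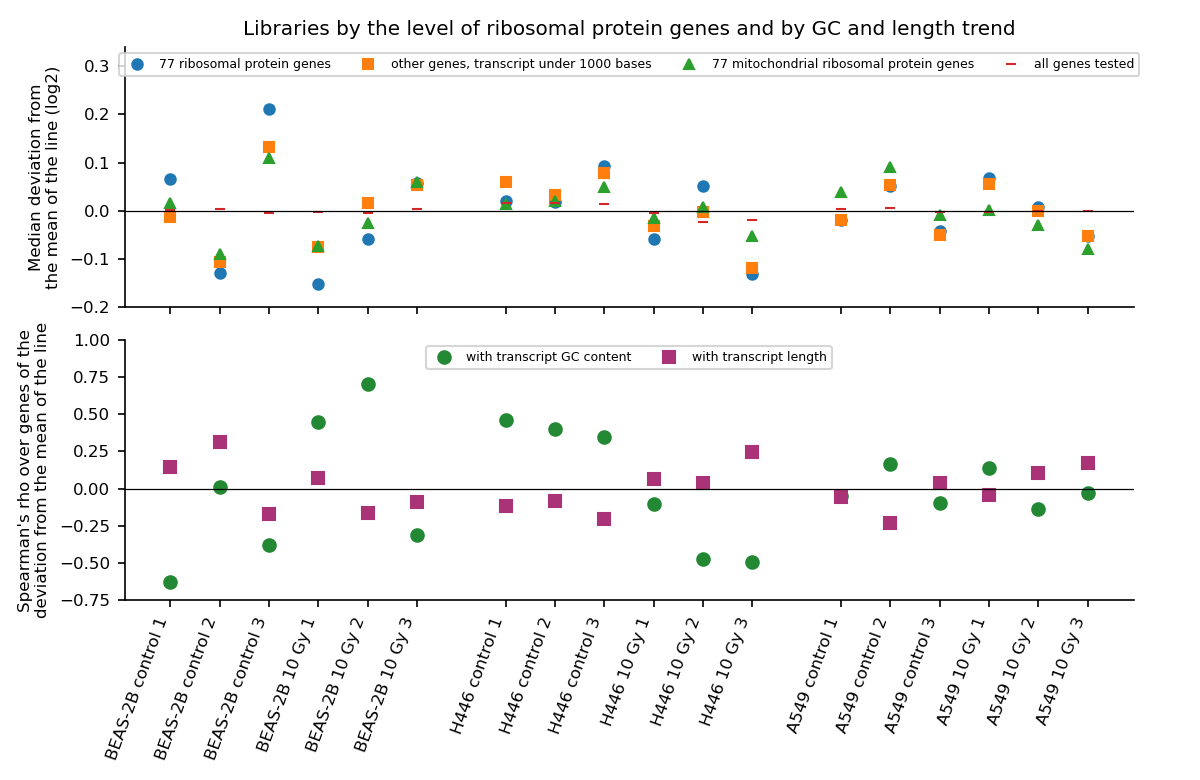
For each of the 18 libraries, the upper panel plots the median log2 deviation from the mean of its line for 4 groups of genes, and the lower panel Spearman's rho across genes of that deviation with transcript GC content and length. Core, short and mitochondrial ribosomal genes lie low together in BEAS-2B control replicate 2 and high together in replicate 3 but part in others such as BEAS-2B 10 Gy replicate 2, and the H446 control and irradiated libraries lie on opposite sides of 0 in GC trend.

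In BEAS-2B no ribosomal protein gene passed the test. Of 85 members tested with limma on log2(FPKM + 1), 0 rose and 0 fell at a Benjamini-Hochberg adjusted p under 0.05, beside 0% of all 11734 genes in either direction (0% higher and 0% lower); at an unadjusted p under 0.05 there was 1 member, the read-through gene RPL17-C18orf32, and 1446 of all genes. The share of all genes depended on the fit: 439 genes were called with a replicate block and 842 with all 18 libraries in 1 fit, with 0 members in both. The estimates were nearly all below 0: 79 of 85, with a median log2 fold change of -0.09 beside 0.00 over all genes. Without 10 Gy replicate 2 the count was again 0, beside 1.92% of all genes higher and 0.0771% lower, 1 member had an unadjusted p under 0.05, and 83 of 85 estimates were below 0 with a median of -0.09. The size of that median is under the spread of the member median between replicates, an SD of 0.14 on the log2 scale. Leaving out control replicate 3 alone brought it to -0.01, and leaving out control replicate 2 to -0.17.

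In H446, 15 members fell and 1 rose, of 86 tested. These 16 are 18.6% of the members, beside 38.4% of all 11479 genes tested, 23.6% lower and 14.8% higher. The members' median log2 fold change was -0.08, with -0.03 over all genes, and it was -0.04 without 10 Gy replicate 3 and -0.12 without 10 Gy replicate 2. Of the 77 core genes 14 fell and 0 rose, 8 of 31 in the 40S subunit, 6 of 43 in the 60S subunit and 0 of 3 in the stalk. Genes of the small subunit with the largest decreases were RPS28, RPS21 and RPS15. All irradiated libraries lay below all controls for 22 members and above them for 3, beside 29.9% and 20.4% of all genes tested. A lack of overlap was thus common in this line.

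RPS28 encodes a small protein of the 40S head near the exit of the message. It was measured at 596, 533 and 564 FPKM in H446 control cells and at 429, 508 and 401 FPKM after irradiation, so that every irradiated library was below every control. It fell by 0.34 on the log2 scale (SE 0.08, limma adjusted p = 0.00565), a call lost under 2 of 19 alternatives, with a change of -0.19 once the GC trend was removed. RPL37A, a zinc-binding protein of the 60S subunit, was at 823, 799 and 925 FPKM in controls and at 692, 768 and 657 FPKM in irradiated cells. These groups did not overlap either, and the change was -0.27 (SE 0.07, limma adjusted p = 0.0108). RPS21, which takes part in the late maturation of the small subunit, had 531, 500.0 and 517 FPKM in controls and 440, 478 and 393 FPKM after irradiation, a change of -0.24 (SE 0.06, limma adjusted p = 0.0110). The irradiated libraries were again all lower. The calls of RPL37A and RPS21 were lost under 3 of 19 alternatives each, and RPS21 was at -0.14 with the GC trend removed.

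RPS15, a protein of the 40S head needed for export of the subunit from the nucleus, was less clear. Its controls were at 707, 654 and 722 FPKM and its irradiated libraries at 567, 659 and 547 FPKM, so irradiated replicate 2 lay above control replicate 2. The change was -0.24 (SE 0.07, limma adjusted p = 0.0184), and RPS15 did not pass under 10 of 19 alternatives, in which its change ranged up to -0.08; 4 of these left out 1 H446 library. RPS3, which lines the entry of the message channel and also acts in DNA repair, was at 457, 463 and 476 FPKM in controls and 417, 419 and 376 FPKM in irradiated cells, without overlap (log2 fold change -0.21, SE 0.05, limma adjusted p = 0.00662). RPS14, a 40S protein lost in the deletion of the 5q syndrome, fell by 0.16 (SE 0.05, limma adjusted p = 0.0364), a call lost under 12 of 19 alternatives. RPS19BP1, which is no ribosomal protein, decreased by 0.33 (SE 0.05, limma adjusted p = 0.000854), from 23.5, 25.4 and 24.7 FPKM to 18.7, 20.7 and 18.5 FPKM.

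The member that rose in H446 was RPL7L1, a paralog of RPL7 that acts in assembly of the large subunit. It had 46.1, 48.3 and 48.7 FPKM in controls and 51.5, 52.8 and 51.7 FPKM after irradiation (log2 fold change 0.12, SE 0.04, limma adjusted p = 0.0244), and the call was lost under 6 of 19 alternatives. Further called members, not the full list, were RPL27, RPL35, RPL32, RPL28 and RPS23, with changes between -0.20 and -0.10. Across the 77 core genes the fold change went with GC content, with a Spearman's rho of -0.43 in H446, in the direction of the library trend; it was -0.33 in A549 and of opposite sign in BEAS-2B, 0.45 with and 0.24 without 10 Gy replicate 2, and the genes of a line share the same 6 libraries. With the GC trend of each library removed, 10 members were lower and 2 higher, with a median of -0.05, and with the length trend removed 8 were lower and 3 higher, with a median of -0.01. With both trends removed 14 were lower and 1 higher, with a median of -0.05. All genes called under these settings were 3511, 4389 and 3714, each with a median over all genes of 0.00. RPL35, with the highest GC content of the core genes (63.7%), changed sign, from -0.18 to 0.03 with the GC trend removed. The count also hung on single libraries. It was 34 without 10 Gy replicate 2, 8 without 10 Gy replicate 3, 9 without control replicate 1 and 10 without control replicate 3. All genes called in these fits numbered 3766, 3408, 3281 and 3504, against 4407 in the main fit. Without 10 Gy replicate 2, more members but fewer of all genes were called, and all 34 members were lower.

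In A549, 5 members rose and 6 fell, of 86 tested. These 11 are 12.8% of the members, beside 51.7% of all 11993 genes tested, 25.3% higher and 26.4% lower. The median log2 fold change was 0.01, with -0.00 over all genes. Of the 77 core genes, 4 rose (RPS19, RPL23, RPL7A and RPL34) and 2 fell (RPL28 and RPS2), and among the 7 paralogs RPL36AL rose and RPL22L1, RPL7L1 and RPL39L fell. Quantile normalization gave 11 higher and 25 lower, rescaling by the median ratio of other genes 8 and 6, and removal of the length trend 13 and 7. All genes called under these settings were 6161, 6207 and 6319, near the 6202 of the main fit. Without 10 Gy replicate 1, 6 were higher and 13 lower, beside 5672 of all genes called. All irradiated libraries lay above all controls for 7 members and below them for 7, beside 29% and 29.5% of all genes tested. A lack of overlap was thus common in A549 too.

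RPS19 was the core gene with the largest change in A549. The gene lies on chr19:41859918-41872926 (GRCh38, plus strand), and its protein is needed to mature the small subunit and is mutated in Diamond-Blackfan anaemia. It was measured at 2721, 2962 and 2745 FPKM in control cells and at 3743, 3490 and 3424 FPKM after irradiation. All irradiated libraries exceeded all controls, and the log2 fold change was 0.34 (SE 0.05, limma adjusted p = 0.000198). In BEAS-2B it was at 1301, 1132 and 1380 FPKM in controls and at 1131, 1143 and 1335 FPKM after irradiation (log2 fold change -0.08, SE 0.11, limma adjusted p = 0.765), and the fold change was -0.04 without 10 Gy replicate 2. These values overlap, as do the H446 values of 681, 677 and 733 FPKM against 634, 708 and 581 FPKM (-0.12, SE 0.07, limma adjusted p = 0.159).

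RPL28 showed the opposite change in A549. This 60S protein, encoded on chr19:55385345-55403250 (GRCh38, plus strand), was at 629, 640.1 and 640.0 FPKM in controls and 574, 547 and 538 FPKM after irradiation, with no overlap. It fell by 0.20 on the log2 scale (SE 0.04, limma adjusted p = 0.000770). In H446 it decreased by 0.12 (SE 0.04, limma adjusted p = 0.0271), from 173, 166 and 161 FPKM to 152, 154 and 154 FPKM, a call that was lost under 10 of 19 alternatives, with a change of -0.02 once the GC trend was removed. In BEAS-2B, 288, 282 and 293 FPKM in controls compared with 314, 354 and 265 FPKM, and the highest of these was 10 Gy replicate 2 (log2 fold change 0.10, SE 0.10, limma adjusted p = 0.681). Without that library the fold change of RPL28 was 0.00 (SE 0.10, limma adjusted p = 0.994).

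Of 6 paralogs tested in A549, 4 passed, beside 51.7% of all genes. RPL22L1 encodes a close relative of RPL22 that can take its place in the 60S subunit. In A549 it was at 43.7, 48.0 and 45.1 FPKM in controls and at 34.4, 37.5 and 32.5 FPKM after irradiation, all lower, with a log2 fold change of -0.38 (SE 0.05, limma adjusted p = 0.000115). Its partner RPL22 had 221, 220.4 and 221 FPKM against 238, 230 and 218 FPKM (0.05, SE 0.04, limma adjusted p = 0.327). RPL7L1 fell from 41.3, 40.3 and 40.6 FPKM to 34.2, 36.1 and 34.3 FPKM (-0.22, SE 0.04, limma adjusted p = 0.000646), the reverse of its change in H446. RPL39L, a form of RPL39 known from testis and from some tumours, decreased by 0.21 (SE 0.05, limma adjusted p = 0.00439), and RPL36AL, which differs little from RPL36A, increased by 0.16 (SE 0.05, limma adjusted p = 0.0132).

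Smaller increases in A549 were those of RPL23 (0.18, SE 0.05, limma adjusted p = 0.0108), from 2420, 2461 and 2204 FPKM to 2638, 2721 and 2635 FPKM, and of RPL7A and RPL34, both 0.14 (SE 0.04; limma adjusted p = 0.0116 and 0.0202). RPL34 lost its call under 7 of 19 alternatives, and RPL23, RPL7A and RPL36AL under 3 each. RPS2, a 40S protein at the entry of the message channel, fell by 0.12 (SE 0.05, limma adjusted p = 0.0386), a call lost under 9 of 19 alternatives. RPS19BP1 fell by 0.31 (SE 0.07, limma adjusted p = 0.00204), from 27.8, 30.9 and 29.2 FPKM to 26.4, 22.4 and 21.9 FPKM. RPS19BP1 fell in both cancer lines under every alternative.

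**Figure D3:**
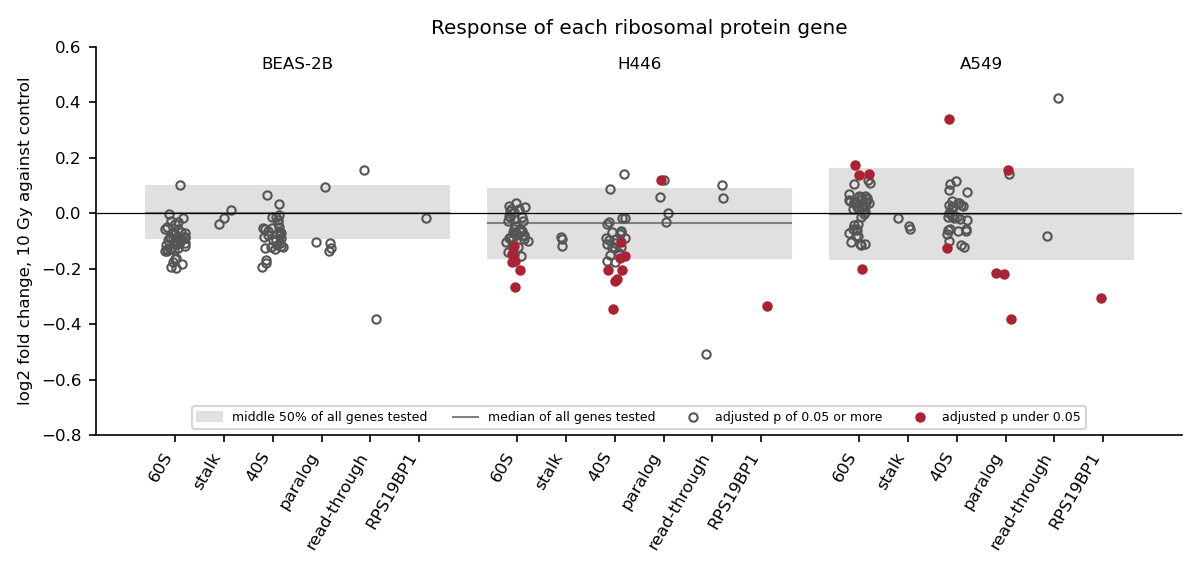
Each point is 1 member's log2 fold change of 10 Gy against control in a line, by class, filled red where the limma adjusted p was under 0.05; the grey band is the middle 50% of all genes tested in that line and the grey line their median. Core genes lie in a narrow cloud below 0 in BEAS-2B with no call, extend downwards in H446, and centre on 0 in A549, where RPS19 is the highest and RPL22L1 the lowest of the called members.

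**Figure D4:**
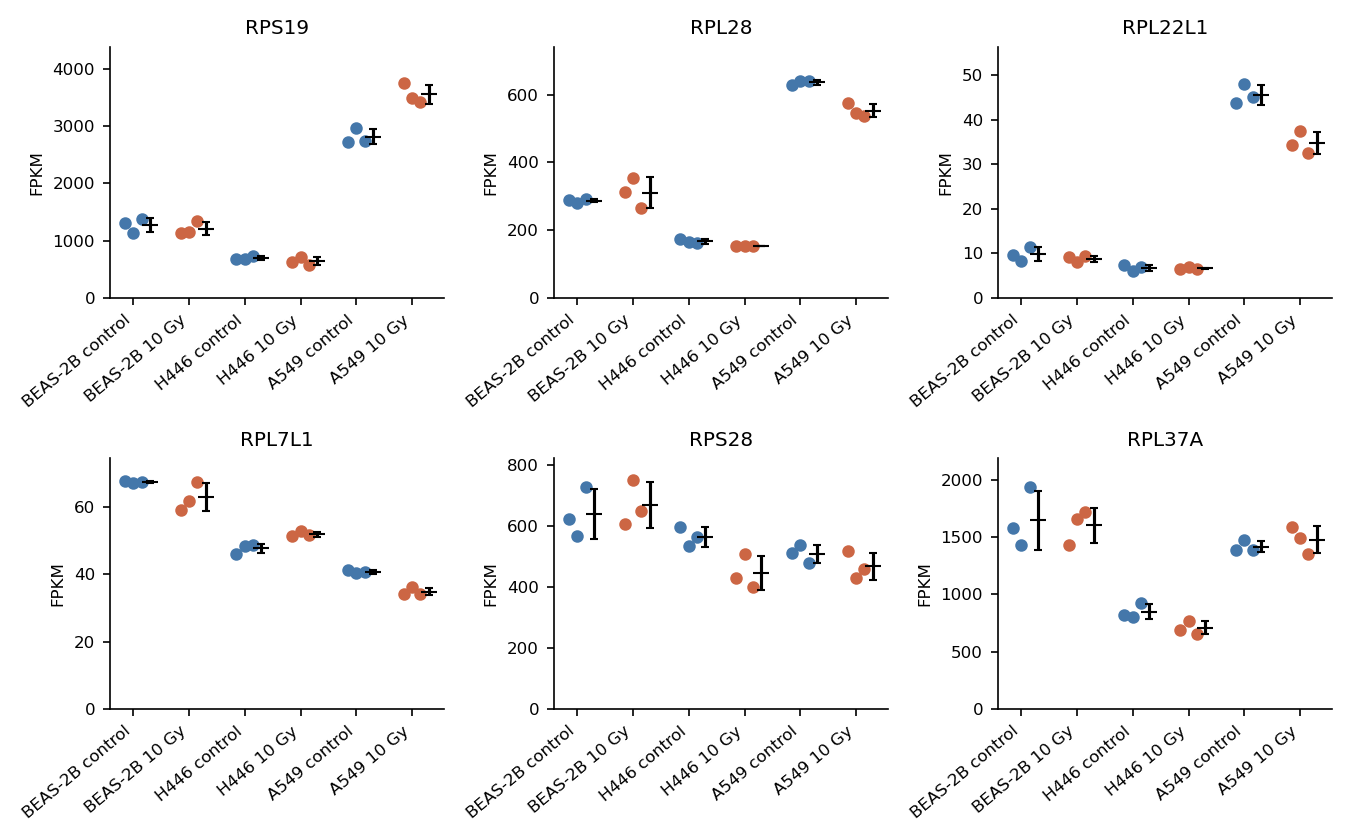
FPKM of 6 members in each library (blue control, orange 10 Gy), with the mean and SD of 3 libraries as a dash and bar. Irradiated A549 libraries exceed the controls for RPS19 and lie below them for RPL28, RPL22L1 and RPL7L1, and irradiated H446 libraries lie below the controls for RPS28 and RPL37A.

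Of the 5 genes listed here for binding of their proteins to MDM2, a list that leaves out further reported binders, 1 passed the test, in A549, where 51.7% of all genes did. RPL5 had log2 fold changes of -0.10 in BEAS-2B cells, -0.06 in H446 cells and 0.02 in A549 cells, and RPL11 of -0.14, -0.01 and 0.04, with SEs of 0.04 to 0.11. RPS7 was at -0.12, -0.03 and 0.01 and RPL26 at -0.18, 0.02 and 0.05. RPL23 was the one that rose, and its values were -0.19 in BEAS-2B and -0.01 in H446. MDM2 itself, a p53 target, rose by 1.76 in A549 (SE 0.06, limma adjusted p = 8.02e-10). In BEAS-2B, with 10 Gy replicate 2 included, MDM2 was at 1.13 (SE 0.43, limma adjusted p = 0.338). In H446 it was at -0.11 (SE 0.06, limma adjusted p = 0.200). The stalk genes RPLP0, RPLP1 and RPLP2, whose proteins recruit elongation factors, had changes between -0.04 and 0.01 in BEAS-2B, -0.12 and -0.08 in H446 and -0.06 and -0.02 in A549, and none passed. RPS6, the substrate of the S6 kinases, was at -0.12, -0.07 and 0.04, and RPSA, also known as the laminin receptor, at -0.11, -0.09 and -0.01. RPL10, which joins the large subunit last, was at -0.07, -0.14 and -0.06. RPL13A, known for an extra-ribosomal role in silencing inflammatory messages, had -0.07, -0.07 and 0.07. RPL41 was at -0.14, -0.08 and -0.04 and RPS27A, made as a fusion with ubiquitin, at -0.08, -0.02 and -0.02, and none of these 6 genes passed in any line. In BEAS-2B without 10 Gy replicate 2, the fold changes were -0.09 for RPL5, -0.09 for RPL11, -0.10 for RPS7, -0.12 for RPL26 and -0.14 for RPL23. The stalk genes then lay between -0.09 and -0.02, and RPS6, RPSA, RPL10, RPL13A, RPL41 and RPS27A between -0.15 and -0.06.

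The responses of the lines were compared in 1 fit of all 18 libraries, over 13071 genes and 87 members. Between BEAS-2B and H446, 1 member had a higher response in BEAS-2B (RPS28) and 1 a lower one (RPL7L1), beside 13.7% higher and 8.99% lower of all genes. Without BEAS-2B 10 Gy replicate 2, RPL7L1 passed (-0.21) and RPS28 did not (0.32, limma adjusted p = 0.121), beside 11.8% and 6.69%. Between BEAS-2B and A549, RPL28 and RPL39L were higher and RPS19 and RPL23 lower, beside 16% and 14.6%. Without that library RPS19 alone remained, at -0.38 (SE 0.13, limma adjusted p = 0.0304), beside 16.1% higher and 13.9% lower. Between A549 and H446, RPS19 was higher in A549 by 0.46 (SE 0.12, limma adjusted p = 0.00603), and RPL7L1 and RPL22L1 were lower by -0.34 and -0.35, beside 19.3% higher and 15.3% lower of all genes. The comparisons share the irradiated and control libraries of a line, so they are not independent of each other.

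Control cells of the lines differed in 78.2% (H446 and BEAS-2B), 72.4% (A549 and BEAS-2B) and 79.3% (H446 and A549) of 87 members, beside 81.1%, 83.8% and 83.2% of all genes. H446 controls were lower than BEAS-2B controls for 64 of 87 members and higher for 4, beside 45.9% lower and 35.2% higher of all 13071 genes, with a median log2 difference of -0.50 (all genes -0.09). RPL23, on the large subunit, had the largest decrease relative to BEAS-2B (log2 difference -1.29, SE 0.10, limma adjusted p = 4.31e-10), at 914, 850 and 961 FPKM in H446 against 2296, 1963 and 2441 FPKM in BEAS-2B. RPL38, linked to selective translation of homeobox messages, differed by -1.12 and RPL26 by -1.11. RPL37, RPL34 and RPS2 were higher in H446, by 0.46, 0.31 and 0.24. Quantile normalization left 55 lower and 14 higher with a median of -0.27, beside 10544 of all genes called with a median of -0.06.

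A549 controls were lower than BEAS-2B controls for 39 members and higher for 24, beside 45.4% lower and 38.3% higher of all genes, with a median of -0.14 (all genes -0.07). Quantile normalization gave 35 lower and 32 higher with a median of -0.04 (all genes -0.04). Rescaling by the median ratio of other genes gave 30 and 29 with a median of -0.01 (all genes 0.04), and with the length trend removed the median was -0.03. RPS19 and RPL28, the core genes with the largest rise and fall in irradiated A549, were also the core genes furthest above BEAS-2B in its controls, by 1.15 (SE 0.08) and 1.14 (SE 0.07), with limma adjusted p = 2.82e-10 and 1.68e-11. RPL22L1 stood at 43.7, 48.0 and 45.1 FPKM in A549 control cells and at 9.71, 8.26 and 11.4 FPKM in BEAS-2B, a log2 difference of 2.12 (SE 0.09, limma adjusted p = 5.86e-14). RPL26L1, RPL35 and RPL14 were lower in A549, with log2 differences of -1.38, -1.27 and -1.18.

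H446 controls were lower than A549 controls for 54 members and higher for 15, beside 42.7% lower and 40.5% higher of all genes, with a median of -0.41 (all genes -0.01). RPL22L1, RPS19 and RPL28 were lower in H446, with log2 differences of -2.58, -2.01 and -1.93, while RPL37, RPL35 and RPL7A were higher in H446 by 1.14, 1.11 and 1.05. Quantile normalization left 48 lower and 24 higher with a median of -0.24, beside 10906 of all genes called with a median of -0.01. The stalk genes differed too, with RPLP0 at -0.95, RPLP2 at -0.93 and RPLP1 at -0.45 between H446 and A549, all with limma adjusted p of 0.000136 or less. The comparisons with BEAS-2B share its controls, and those with A549 or H446 share theirs.

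**Figure D5:**
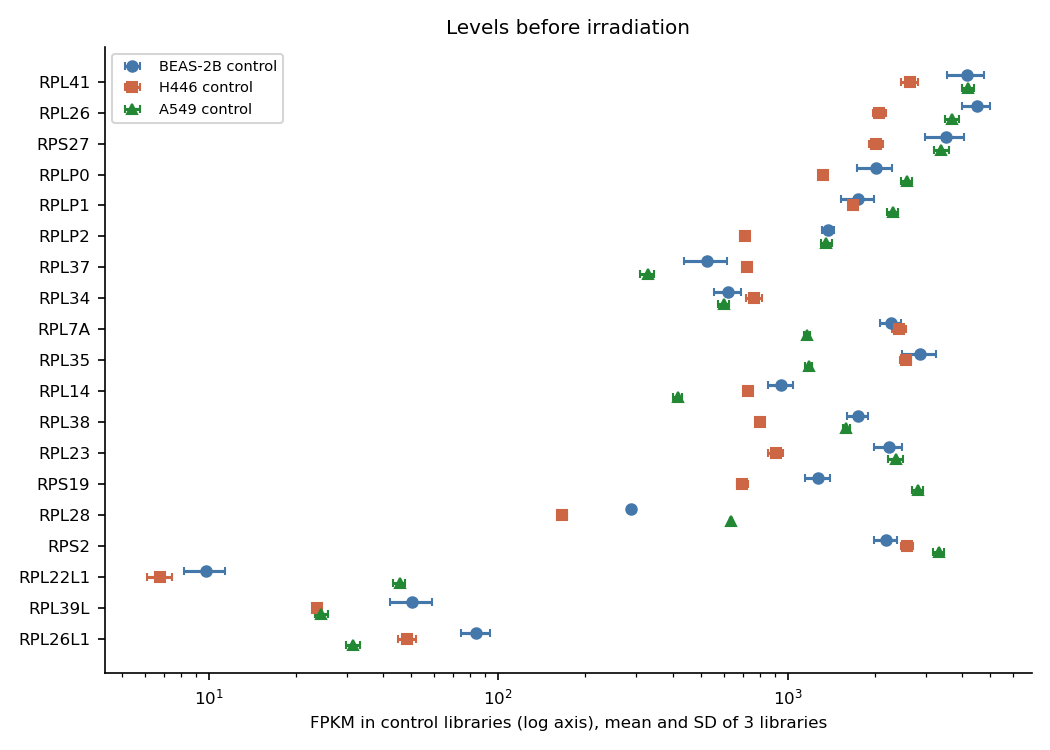
Mean FPKM with SD of 3 control libraries on a log axis for 19 members in BEAS-2B (circles), H446 (squares) and A549 (triangles). H446 lies lowest for most members, RPS19, RPL28 and RPL22L1 are highest in A549, and RPL35, RPL14 and RPL7A are lowest there.

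Genes that make or serve the ribosome were counted in the same fits, without a test against the ribosomal protein genes. In A549, of 58 ribosome biogenesis factors, which process ribosomal RNA and assemble the subunits, 44 fell and 1 rose (median log2 fold change -0.27), and of 27 genes of RNA polymerases I and III, which transcribe ribosomal RNA, 19 fell and 2 rose (median -0.29), beside the 26.4% and 25.3% of all genes given above. NPM1, which encodes a nucleolar chaperone, fell by 0.28 (SE 0.04, limma adjusted p = 0.000135). Of 77 mitochondrial ribosomal protein genes, 31 fell and 10 rose (median -0.07), of 35 initiation factors 16 fell and 6 rose, and of 9 elongation factors 1 fell. Among 22 other genes with TOP messages, 4 rose and 2 fell (median 0.04).

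In H446, where 23.6% of all genes were lower and 14.8% higher, the same lists had these counts. Of the biogenesis factors 14 fell and 14 rose (median -0.01), of the polymerase genes 5 fell and 3 rose, of the mitochondrial ribosomal genes 22 fell and 9 rose, and of the other TOP messages 3 fell and 3 rose. Of the initiation factors 8 fell and 5 rose, of the elongation factors 3 fell and 2 rose, and of the mTORC1 genes 4 fell and 1 rose. In BEAS-2B none of these genes passed the test, and without 10 Gy replicate 2 only 2 genes of mTORC1 and its regulators and 1 mitochondrial ribosomal gene did, all higher, beside 1.92% higher and 0.0771% lower of all genes. In A549 LARP1, which binds the TOP motif, fell by 0.21 (SE 0.04, limma adjusted p = 0.000981), and of 14 genes of mTORC1 and its regulators 7 fell and 2 rose, beside 26.4% lower and 25.3% higher of all genes. SESN1, a p53 target that restrains mTORC1, was higher there by 1.52 (SE 0.06, limma adjusted p = 2.55e-09), SESN2 lower by -0.57 and DDIT4 lower by -0.71. In H446 DDIT4 fell by 0.39 (limma adjusted p = 0.000169), SESN1 was at 0.05 and SESN2 at 0.10, and in BEAS-2B the 3 were at 0.11, 0.95 and 0.73 in the order DDIT4, SESN1 and SESN2, without passing while 10 Gy replicate 2 was included. RPS27L, a p53 target that resembles RPS27 but is left out by the rule, rose by 1.12 in A549 (SE 0.05, limma adjusted p = 1.58e-08). It was at 0.01 in H446, and at 0.09 (SE 0.13) in BEAS-2B with 10 Gy replicate 2, the library with low p53 targets, included. RACK1, which encodes a scaffold bound to the small subunit, fell by 0.15 in H446 and by 0.12 in A549 (limma adjusted p = 0.0270 and 0.0487), and FAU, which encodes a ribosomal protein under another symbol, passed in no line.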

How the data were processed

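The authors irradiated the cells, extracted poly(A) RNA, and read 50 bases from 1 end of each fragment (BGISEQ-500). Per the labels' processing notes, HISAT2 2.0.4, Bowtie2 2.2.5, RSEM 1.2.12 and hg38 were used. The deposited table gives 1 value per gene and library, taken to be FPKM, as the header names no unit and totals differ between libraries. Counts were not used here, so no counting interval is given, and paralogs and pseudogenes may share reads.

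Symbols were matched by Entrez number to RefSeq (18181 of 18475 genes), and transcript length and GC content came from GENCODE 29. The members and gene lists were chosen with earlier results of these data known. Genes that reached an FPKM of 1 in 3 or more of a line's 6 libraries (in any line for the joint fit) were transformed to log2(FPKM + 1) and tested with limma 3.58.1 (eBayes with trend) in R 4.3.3, at a Benjamini-Hochberg adjusted p under 0.05 over all genes. Each line was fitted alone; differences between responses and between controls came from 1 fit of 6 group means over 18 libraries. Differences on this scale understate changes of low genes. Named genes were the 5 called members furthest from 0 in each direction and line, members with a known role, restricted paralogs, the 3 highest and lowest of those passing the filter in all lines, and the 3 furthest apart in each direction between controls; RPL27A, RPL13 and RPS23 were added after their values were seen, as were further called members of H446. Some genes are not reported here. Alternatives were 3 scalings, other filters, pseudocount and threshold, a replicate block, removal of GC and length trends by loess, and leaving out each library. The fits were also run on simulated data in which each gene varied independently of the others. The shared shifts of the core genes between libraries were not simulated, so those runs cannot vouch for the calls given here. No 2 libraries shared more than 2.97% of their values above 0. Python 3.11.15 and matplotlib 3.10.9 drew the figures.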

Additional observations from a re-analysis of the deposited data

Results flagged for a closer look

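Members whose response to irradiation differed between lines are listed here, each from the fit of all 18 libraries with limma; no cause was tested. RPS28 had a response higher by 0.41 in BEAS-2B than in H446 (SE 0.14, limma adjusted p = 0.0473), and RPL7L1 one lower by -0.22 (SE 0.06, limma adjusted p = 0.0216). Compared with A549, the BEAS-2B response was -0.42 for RPS19 (SE 0.12, limma adjusted p = 0.0134), -0.37 for RPL23 (SE 0.14, limma adjusted p = 0.0494), 0.31 for RPL28 (SE 0.10, limma adjusted p = 0.0263) and 0.31 for RPL39L (SE 0.11, limma adjusted p = 0.0404). Between A549 and H446 the difference was -0.35 for RPL22L1 (SE 0.13, limma adjusted p = 0.0392), -0.34 for RPL7L1 (SE 0.06, limma adjusted p = 0.000631) and 0.46 for RPS19 (SE 0.12, limma adjusted p = 0.00603). RPL7L1 and RPS19 appear in 2 of the 3 comparisons each. Without BEAS-2B 10 Gy replicate 2, the library with the low p53 targets, RPL7L1 (-0.21) and RPS19 (-0.38) still passed. RPS28 (0.32), RPL23 (-0.32), RPL28 (0.21) and RPL39L (0.31) kept their direction but had limma adjusted p of 0.121, 0.106, 0.0573 and 0.0567.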

How the results depend on the processing

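Counts of called members were small and moved with the processing. In H446 the 16 called members became 9 with rescaling by the median ratio of other genes, 10 with no trend in limma, 8 with no filter on low values, 5 at an adjusted p under 0.01 and 3 when all 18 libraries shared 1 fit. All genes called were 4406, 4122, 3712, 2529 and 3157 in the same order. RPL35 in H446 reversed, to log2 fold changes of 0.0270 with the GC trend removed and 0.00896 with the GC and length trends removed. In A549 the 11 became 36 with quantile normalization, 17 with equal totals, 6 at the stricter threshold, 20 with the length trend removed, 19 with GC and length trends removed and 6 with all 18 libraries in 1 fit. All genes called were 6161, 6134, 4611, 6319, 6445 and 5374 in that order. For BEAS-2B minus H446 the 2 became 7 (quantile), 4 (equal totals), 1 (median ratio, no trend, no filter, pseudocount 0.1, GC trend removed), 0 (stricter threshold) and 4 (length trend removed). For BEAS-2B minus A549 the 4 became 8 (quantile, equal totals), 2 (no filter, GC trend removed), 0 (stricter threshold), 15 (length trend removed) and 9 (both trends removed). For A549 minus H446 the 3 became 5 (quantile, GC trend removed), 6 (equal totals) and 10 (both trends removed). All genes called under the settings named ran from 1208 to 2980, from 2308 to 4282 and from 4230 to 4918 in these comparisons of responses. The cause was not tested. BEAS-2B stayed at 0 called under every alternative, the control comparisons within 1.5 times their counts, and of the 21 called single-gene results that were followed (further called members of H446 were not), 8 kept their call in all alternatives, while 25 uncalled ones gained a call in at least 1. The 8 were RPS19BP1 and RPS3 in H446, and RPS19BP1, RPL7L1, RPL22L1, RPL39L, RPL28 and RPS19 in A549.

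Leaving out 1 library gave 8 (10 Gy replicate 3) to 34 (10 Gy replicate 2) called in H446 and 8 (control replicate 1) to 19 (10 Gy replicate 1) in A549. Of all genes, 3408 and 3766 were called in those H446 fits (main fit 4407), and 5672 without A549 10 Gy replicate 1 (main fit 6202). For BEAS-2B minus H446 it gave 0 (without H446 control replicate 1) to 7 (without BEAS-2B 10 Gy replicate 3), and for BEAS-2B minus A549 1 (without BEAS-2B 10 Gy replicate 2) to 19 (without BEAS-2B control replicate 2; 13 without 10 Gy replicate 3). All genes called were 2130 and 4532 in the former fits, and 3920, 4297 and 4711 in the latter. For A549 minus H446 it gave 2 to 4. The control comparisons gave 67 to 76, 58 to 66 and 65 to 68.

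Replicates of the same number did not clearly pair across treatments. Their deviations correlated at -0.13, 0.32 and 0.31 in BEAS-2B, 0.19, 0.01 and 0.08 in H446 and 0.01, -0.05 and -0.10 in A549. In BEAS-2B, unlike numbers reached 0.38 (control 1 with irradiated 3) and -0.50 (control 2 with irradiated 3), so pairing there stays unsettled. With the number as a replicate block, 0, 13 and 11 members were called in the lines, and 1, 7 and 4 in the differences between responses. Depth is known only from steps in low values.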
